A study of Homo sapiens with 12 samples.

Results

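The 34 genes described here encode initiation and elongation factors of translation outside the cap-binding eIF4F complex: the eIF1, eIF2, eIF2B, eIF3, eIF5 and eIF6 families, some other proteins named eIF, and the elongation factors with the kinase of eEF2. They were chosen by name, not by measured values. All 34 were among the 37471 genes of the table analysed here, and all 34 passed the expression filter that left 9778 genes for testing (a mean of at least 1 FPKM). FPKM values are fragment numbers divided by transcript length and by library size, so they compare genes per length. The lowest value of any member in any library was 5.35 FPKM, so none passed the filter through 1 group alone. The cells were CAL62, an established line from an anaplastic thyroid carcinoma, in 2 isogenic forms, called here the miR-139 line and the scrambled line. The former expresses mature hsa-miR-139-5p under a doxycycline-inducible promoter and the latter a scrambled, non-targeting control. PolyA RNA of each form was sequenced without treatment (0 h) and after 96 h of doxycycline at 1 µg/ml. Each of the 4 groups had 3 libraries, whose columns carry a tag, C, NE or TR, that occurs once in each group and whose meaning the labels do not give. Where 3 values are listed for a group, they follow the order C, NE, TR. Both lines carry an inducible cassette, so doxycycline itself is common to both treated groups, as are the 96 h. Every untreated library is from 0 h, so within a line doxycycline and time cannot be told apart. A doxycycline change below stands for both. Of the thyroid markers analysed here, PAX8 averaged 107 FPKM and HHEX 32.9 FPKM. NKX2-1 was listed at 0 in all 12 libraries, and TSHR and SLC5A5 did not exceed 0.0217 FPKM in any. Of 11 markers of other cell types in the table, PTPRC and CD3E of leukocytes, COL3A1 of fibroblasts and KRT5 of keratinocytes were listed at 0 in all 12 libraries. DCN, KRT14 and CDH5 did not exceed 0.397 FPKM in any, whereas COL1A1 averaged 62.0 FPKM, KRT10 15.2, CD68 8.68 and ESAM 1.79 FPKM.

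Translation starts when the small ribosomal subunit, with eIF1, eIF1A, eIF3, eIF5 and a ternary complex of eIF2, GTP and initiator tRNA, scans an mRNA for its start codon. eIF5 triggers GTP hydrolysis by eIF2, eIF5B then joins the large subunit, and eIF2B reloads eIF2 with GTP. Stress kinases such as PERK and GCN2 phosphorylate the alpha subunit of eIF2, which blocks eIF2B, lowers translation in general and raises that of a few mRNAs such as ATF4. In elongation eEF1A brings aminoacyl-tRNA to the ribosome and is recharged by eEF1B, eEF2 moves the ribosome along, and the kinase eEF2K inhibits eEF2. Many mRNAs of the translation machinery begin with a run of pyrimidines, the 5′ TOP motif, through which their translation follows growth signals.

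The induced miRNA is hsa-miR-139-5p, encoded at chr11:72615102-72615124 on the minus strand (GRCh38.p14, RefSeq). Its mature sequence is printed 5′ to 3′ with the seed, bases 2 to 8, in capitals.
hsa-miR-139-5p: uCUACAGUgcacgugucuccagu
The 7-mer that pairs with this seed, ACTGTAG, was searched on the sense strand in the longest 3′ UTR annotated by GENCODE 29 (GRCh38). Of the 34 members 3 held it, 8.82%, against 869 of 7594 tested genes with a 3′ UTR, 11.4%. The 4 sites are shown because they are where the seed could pair with an annotated transcript of a member. Those of EIF2S1 and EIF3M are in the principal transcript. That of EIF2AK4 is in an alternative transcript of 11 exons, whereas the principal one has 39 exons, a 3′ UTR of 506 bases and no such 7-mer. In principal transcripts 2 of 34 members held it, 5.88%, against 10.2% of 7542 tested genes. Each lies in the last exon of its transcript, the coordinates are those of the 7-mer, which is in capitals, and 10 bases stand on either side.
EIF2AK4, chr15:39974487-39974493, + strand: cattactgttACTGTAGaaaaactttt
EIF2S1, chr14:67383950-67383956, + strand: ttgatgtggaACTGTAGgagcaggtga
EIF3M, chr11:32602715-32602721, + strand: gcaaagacaaACTGTAGagctttaaat
EIF3M, chr11:32603941-32603947, + strand: gtggcatgcaACTGTAGtcccagctcc
EIF2AK4 encodes the kinase GCN2, EIF2S1 the alpha subunit of eIF2, and EIF3M a subunit of eIF3. A match is a description of the sequence and not evidence of binding.

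The start of each gene was read from RefSeq's promoter windows (GRCh38.p14), which hold 29 of the 34 members. EIF2S2, EIF3A, EIF3G, EIF3L and EEF1A2 had no entry. The search was for a C at the first transcribed base with 4 or more pyrimidines (C or T) directly after it, on the gene's strand. Of the 29 members 7 had such a run at the annotated start: EIF2D, EIF2S3, EIF3D, EIF3F, EIF3K, EIF3M and EEF2. That is 24.1%, against 4.04% of all 27305 windows of that table, 5.21% of the 6451 tested genes found there and 61.4% of 44 ribosomal protein genes. The windows of EIF2S3, EIF3D and EEF2 are shown because these 3 were the members that differed between the TR and C libraries, and that of EIF5A because it had the largest difference of the NE libraries and has no such run. Each window runs from 100 bases before to 20 bases into the gene, with the run in capitals.
EIF2S3, chrX:24054856-24054975, + strand: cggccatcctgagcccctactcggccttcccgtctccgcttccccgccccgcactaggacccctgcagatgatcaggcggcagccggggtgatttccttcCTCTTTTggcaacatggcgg
EIF3D, chr22:36529147-36529266, - strand: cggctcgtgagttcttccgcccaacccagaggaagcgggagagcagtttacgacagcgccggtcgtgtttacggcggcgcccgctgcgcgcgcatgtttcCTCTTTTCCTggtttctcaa
EEF2, chr19:3985444-3985563, - strand: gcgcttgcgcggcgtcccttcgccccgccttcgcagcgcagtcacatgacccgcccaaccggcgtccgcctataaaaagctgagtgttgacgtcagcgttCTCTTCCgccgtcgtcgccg
EIF5A, chr17:7306899-7307018, + strand: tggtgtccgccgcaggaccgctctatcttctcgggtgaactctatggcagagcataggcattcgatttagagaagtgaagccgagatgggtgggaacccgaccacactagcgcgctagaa

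The levels of the members spanned more than 2 orders of magnitude, from EIF2AK3 at 7.21 FPKM to EEF1G at 2607 FPKM (means of 12 libraries, unweighted). Among the members elongation factors led. EEF1G, a subunit of the eEF1B exchange factor, was highest in every library. EEF2, the translocase, was next in all 12, with a mean of 1483 FPKM. The following places overlapped in their ranges: EIF5A, the hypusine-carrying factor, averaged 676 FPKM, EEF1B2, the catalytic eEF1B subunit, 629.5 FPKM, and EIF1, which guards start codon choice, 598 FPKM. Among the 33 steps between neighbours in the order of means, the ranges over 12 libraries were apart at only 3: EEF1G above EEF2, EEF2 above EIF5A, and EIF2B3 above EIF3C. EEF1A2, the tissue-restricted form of eEF1A, averaged 54.3 FPKM. EEF1A1, the other gene of eEF1A, had no row under that name and is no member. Loci named as its copies were listed high, EEF1A1P11 at 3047 FPKM and EEF1A1P12 at 2032 FPKM, so the level of eEF1A mRNA is not known from EEF1A2. EEF2K, the lowest elongation gene, had a mean of 10.1 FPKM.

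Among the genes grouped here as start-site factors the order was EIF1, EIF5 (185 FPKM), EIF5B (61.4), EIF1AX (61.3), EIF1AD (39.8) and EIF2D (28.3). The last of these acts in unconventional initiation and in recycling. The grouping is not evidence that EIF1AD acts at the start codon. The 3 subunits of eIF2 were close to each other, EIF2S2 (beta) at 219 FPKM, EIF2S3 (gamma) at 189.9 FPKM and EIF2S1 (alpha) at 156 FPKM. The 4 measured subunits of eIF2B were lower, EIF2B1 (alpha) at 37.7, EIF2B4 (delta) at 37.4, EIF2B2 (beta) at 33.4 and EIF2B3 (gamma) at 26.7 FPKM. Of the eIF2 kinases among the members EIF2AK4 (GCN2) averaged 51.5 FPKM and EIF2AK3 (PERK) 7.21 FPKM. The mRNA levels of the eIF2 subunits thus stood above those of their exchange factor in every library. Within eIF3, the scaffold of the scanning complex, EIF3F (413 FPKM), EIF3L (392) and EIF3M (381) were highest, followed by EIF3K (229), EIF3D (215), EIF3G (213), EIF3I (171) and EIF3A (108), the largest subunit. EIF3J, a loosely bound subunit, averaged 66.7 FPKM. The subunit genes EIF3B, EIF3E and EIF3H, and EIF2B5 of eIF2B, had no row under those names. EIF3C was listed at only 14.3 FPKM, between 12.8 and 16.1. Its near-identical copy EIF3CL was listed at 0.264 FPKM, and reads shared by the copies may have been split or dropped, so the level of EIF3C is uncertain. EIF6, which keeps the ribosomal subunits apart, averaged 284 FPKM, EIF4A3, the helicase of the exon junction complex, 77.9 FPKM, and EIF4ENIF1, which carries eIF4E into the nucleus and to P-bodies, 12.7 FPKM.

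**Figure D1:**
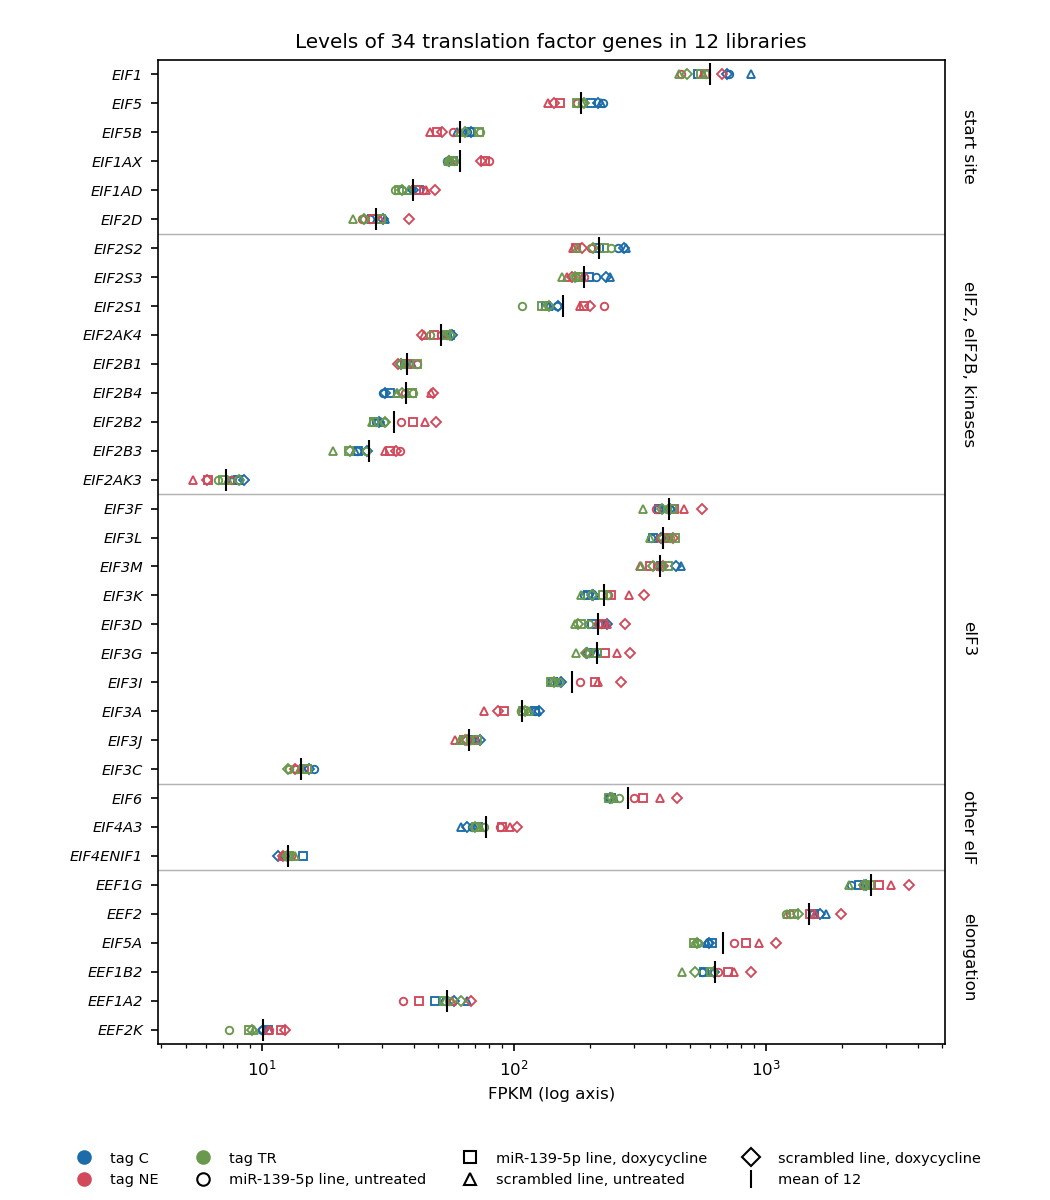
FPKM (log axis) of the 34 genes in each of the 12 libraries, grouped by role; colour is the column tag, the symbol is the group, and the bar is the mean of 12. NE libraries (red) lie apart from the others for several genes, such as EIF5A (751 to 1100.3 FPKM in NE against 517 to 611 in the others), whereas the 4 symbols of one colour mostly lie together.

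Other loci named after a member, pseudogenes and copies, numbered 21, of which 18 averaged at most 1 FPKM. The 3 above that were EIF3FP3 at 16.9 FPKM (4.08% of EIF3F), EEF1B2P3 at 5.78 FPKM (0.918% of EEF1B2) and EIF2S2P4 at 4.35 FPKM (1.99% of EIF2S2). EIF5AL1 was listed at 0.140 FPKM. Reads that these copies share with their parents cannot be assigned with certainty.

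The sum of FPKM over the genes used was between 534216 and 664359 per library, of which the members took 1.51 to 1.93%. The column tag separated the libraries more than the group did: on the log2(FPKM + 1) scale the median member had 65.9% of its sum of squares between tags and 9.57% between groups, against 58.3% and 11.7% for the median tested gene. The NE library of the treated scrambled line stood apart. It was the highest of the 12 for 17 of 34 members and for 27.1% of the 9778 tested genes. Results that rest on it are given with and without it. Because whole cultures were measured, fewer cells of a kind and less RNA per cell cannot be told apart.

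The main comparison of the study asks what differed after 96 h of doxycycline where it induces the miRNA. In the miR-139 line no member was called (0 of 34, limma with Benjamini-Hochberg adjustment over 9778 genes, threshold 0.05), and none of the 9778 genes was called (0%). Member differences ran from −0.19 to 0.15 on the log2(FPKM + 1) scale with a median of 0.01, beside 0.00 for all genes, and 21 were above 0. No member had an unadjusted p under 0.05, beside 72 of all genes. With the column tag as a replicate block 2 genes were called (0.0205%), HNRNPF and EIF4G2, and again 0 members. An unadjusted p under 0.05 was then found for 0 members and 438 of all genes.

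The largest difference was that of EIF2S2, the beta subunit of eIF2. In the miR-139 line it stood at 259.9, 203 and 244 FPKM without and at 217, 176 and 227 FPKM with doxycycline. Each treated library was below the untreated one of its tag, but the groups overlapped (log2 −0.19, SE 0.21, or SE 0.12 with the block, with 95% intervals of −0.64 to 0.27 and −0.44 to 0.06). EIF5, the GTPase-activating factor of eIF2, held 227, 178 and 186 FPKM untreated and 203, 153 and 178 FPKM treated. It too was lower within each tag while the groups overlapped (log2 −0.15, SE 0.20). EIF3G, an RNA-binding subunit of eIF3, went from 196, 193 and 199 FPKM to 208, 229.8 and 214 FPKM (log2 0.15, SE 0.18). Its groups did not overlap, nor did those of EIF2D, 2 of 34 members (5.88%) beside 4.39% of all tested genes. Within the 3 tags, 7 members were above the untreated library each time (EIF2D, EIF3F, EIF3G, EIF3L, EEF1G, EEF2 and EEF2K) and 2 below it (EIF2S2 and EIF5). Those shares, 20.6% and 5.88%, compare with 16.3% and 14.5% of all genes.

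The intervals bound what could have been missed. Over the 34 members the 95% intervals of the doxycycline change in the miR-139 line lay between −0.64 (EIF2S2) and 0.69 (EIF5A) without the block, and between −0.44 (EIF2S2) and 0.44 (EEF1G) with it. In the same cells HNRNPF, the mRNA that the series' design names, averaged 205 ± 28.8 FPKM untreated and 98.5 ± 13.7 treated (SD, n = 3). It fell by 1.05 on the log2 scale with the block (limma, SE 0.08, adjusted p = 3.61e-05), and was not called without it (adjusted p = 0.337). EIF4G2, an eIF4G relative that initiates without the cap-binding protein, averaged 444 ± 6.93 FPKM untreated and 251 ± 13.1 treated (SD, n = 3) and fell by 0.82 (limma with the block, SE 0.10, adjusted p = 0.00458). It is no member and was the only one of 7 tested genes of a cap-binding list that was called.

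In the scrambled line no member was called after doxycycline either (0 of 34 by limma, beside 0% of all genes, without and with the block). An unadjusted p under 0.05 was found for 0 members and 47 of all genes. Differences ran from −0.10 (EIF2B1) to 0.17 (EIF2B3), with a median of 0.09 beside 0.02 for all genes, and 30 of 34 were above 0 beside 57.8% of all genes. That leaning varied with the libraries kept and with the scaling. Leaving out all libraries of a tag gave 31 members above 0 without C, 23 without NE and 30 without TR. Without the treated NE library alone the median was −0.04, but this leaves NE in the untreated group only. That value cannot be told apart from a tag difference. Under quantile normalization 21 were above 0. By tag 14 members were above the untreated library in C, 31 in NE and 26 in TR. EIF2B3, the gamma subunit of eIF2B, held 23.4, 30.9 and 19.1 FPKM untreated and 26.2, 34.2 and 22.3 FPKM treated (log2 0.17, SE 0.22, overlapping groups). EIF2D held 30.7, 29.3 and 23.0 FPKM and then 30.4, 38.5 and 25.5 FPKM (log2 0.17, SE 0.16). Only its NE and TR libraries were above the untreated ones. EIF3F held 426, 472 and 324 FPKM and then 418, 557 and 387 FPKM (log2 0.16, SE 0.17). Its difference was close to 0 without the treated NE library or without the untreated TR library. Each of these omissions leaves the tags unequal between the groups. Only EIF2B1 had groups that did not overlap (2.94% of members, 2.69% of all genes).

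**Figure D2:**
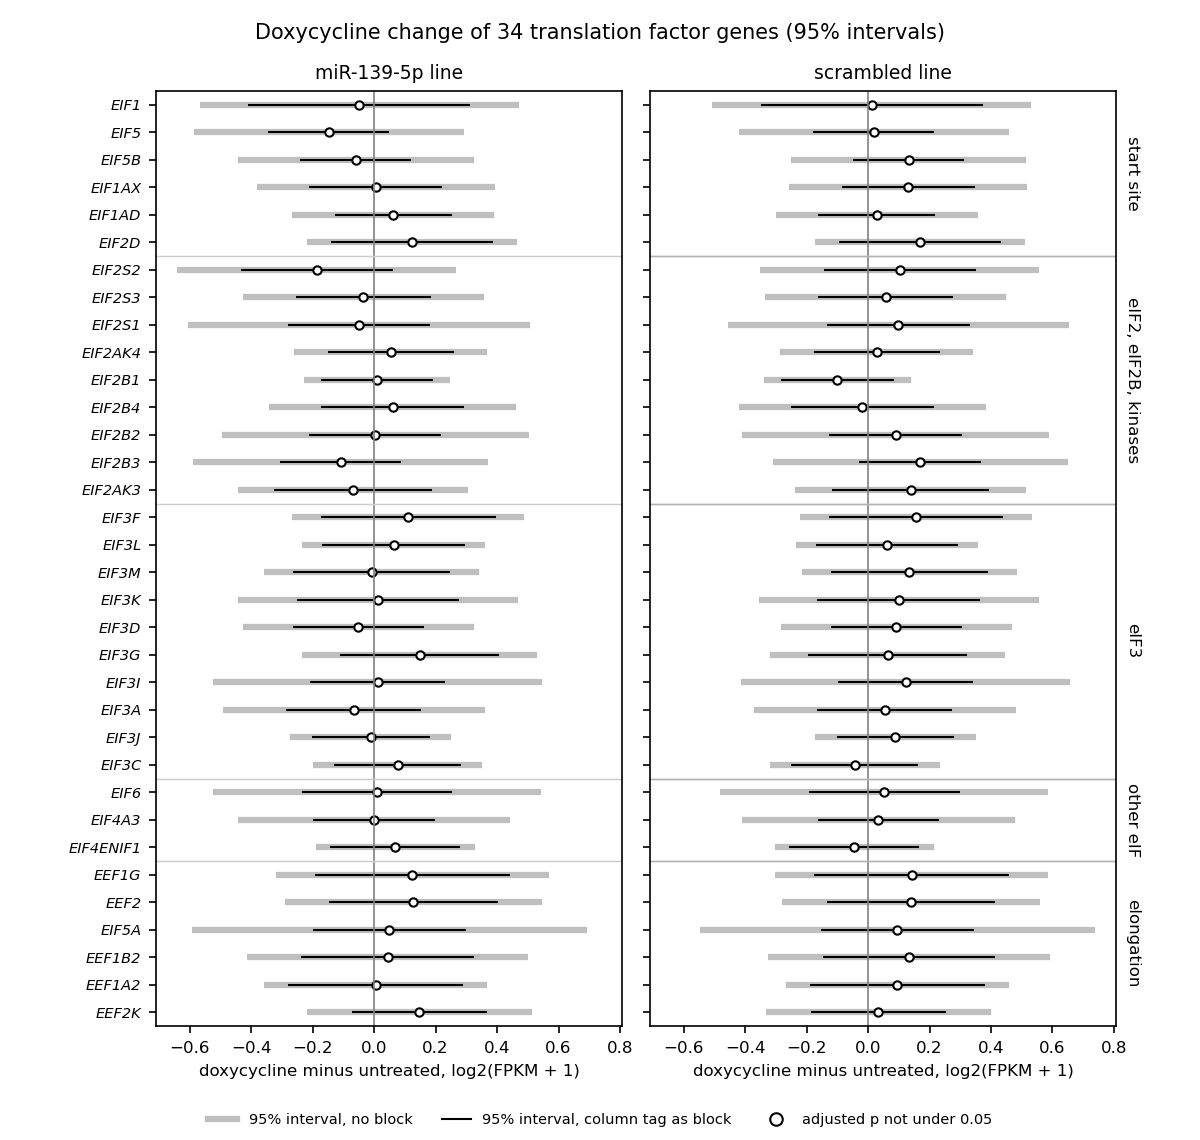
Doxycycline minus untreated on the log2(FPKM + 1) scale for the 34 genes, in the miR-139-5p line (left) and the scrambled line (right), 3 libraries in each group. Grey bars are 95% intervals of the fit without a block and black bars those with the column tag as a block; all points are open because no member was called, and every interval spans 0.

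Tested directly, the difference of the doxycycline change between the lines was called for no member (0 of 34 by limma, beside 0% of all genes, and beside 0.0102% with the block). An unadjusted p under 0.05 was found for 0 members and 41 of all genes. The largest differences were those of EIF2S2 (log2 −0.29, SE 0.30), EIF2B3 (−0.28, SE 0.31) and EIF2AK3 (−0.21, SE 0.24). In the scrambled line EIF2S2 held 279, 171 and 178 FPKM untreated and 274, 186 and 207 FPKM treated. There its TR and NE libraries were higher after doxycycline and its C library lower. EIF2B3 held 23.9, 35.3 and 26.0 FPKM untreated and 24.1, 32.3 and 22.3 FPKM treated in the miR-139 line. EIF2AK3, which encodes PERK, held 8.10, 7.52 and 6.68 FPKM and 8.04, 6.12 and 7.03 FPKM there, and 7.64, 5.35 and 7.36 FPKM and 8.50, 6.08 and 8.09 FPKM in the scrambled line. In the scrambled line the treated library was the higher one in each tag, and in the miR-139 line only in TR.

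Between the lines after doxycycline no member was called (0 of 34 by limma, beside 0% of all genes, and beside 0.112% with the block). An unadjusted p under 0.05 was found for 1 member and 105 of all genes. EEF1A2, whose product delivers aminoacyl-tRNA, was the farthest from 0. Treated libraries held 48.5, 42.1 and 53.1 FPKM in the miR-139 line and 58.0, 67.5 and 61.9 FPKM in the scrambled line, and the groups did not overlap (log2 −0.38, SE 0.17, adjusted p = 0.9998, limma). With the block the SE was 0.13 and the adjusted p = 0.479 (limma, unadjusted p = 0.0126). No other member had an unadjusted p under 0.05, which 7.18% of all genes had. EEF1A2, EIF2B1 and EIF4ENIF1 were the members with groups apart, 8.82% beside 4.19% of all genes. EEF2 held 1553, 1491 and 1295 FPKM in the treated miR-139 line and 1646, 1977 and 1343 FPKM in the treated scrambled line (log2 −0.18, SE 0.19). EIF3I, a WD-repeat subunit of eIF3, held 143, 211 and 141 and 154, 266 and 145 FPKM (log2 −0.16, SE 0.25). Without the treated NE library of the scrambled line, which leaves NE in the miR-139 group only, the difference of EIF3I was 0.11. Only 6 members were above 0, beside 47.2% of all genes, and this leaning too depended on the scaling and on the libraries kept. Under upper quartile scaling 15 were above 0, beside 57.8% of all genes. Without the treated scrambled NE library, with the tags then unequal, 21 were above 0, beside 51.4% of all genes. Leaving out all libraries of a tag gave 12 without C, 16 without NE and 7 without TR.

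Before doxycycline again no member was called between the lines (0 of 34 by limma, with 0 members and 58 of all genes at an unadjusted p under 0.05, beside 0% of all genes, without and with the block). The same gene led: EEF1A2 held 53.6, 36.3 and 55.1 FPKM in the untreated miR-139 line and 65.2, 57.0 and 53.3 FPKM in the untreated scrambled line (log2 −0.29, SE 0.17). EIF5B, the GTPase of subunit joining, held 65.3, 57.2 and 73.7 and 59.6, 46.5 and 61.2 FPKM (log2 0.23, SE 0.18) and was higher in the miR-139 line in each tag. EIF2B3 held 23.9, 35.3 and 26.0 and 23.4, 30.9 and 19.1 FPKM (log2 0.21, SE 0.22). With the block these 3 had unadjusted p-values of 0.0466, 0.0169 and 0.0374, and the smallest adjusted p was 0.928 (limma). No member had untreated groups that did not overlap (0 of 34, beside 2.91% of all genes).

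The members differed far more between the column tags than between the study's groups. Compared with the mean of C and TR, and with the group in the fit, 22 of 34 members differed in the NE libraries, 16 higher and 6 lower (limma, adjusted p under 0.05). The background was large as well: 52.0% of all tested genes were called, 28.0% higher and 24.0% lower, and the members' counts are to be read against that. In the sentences that follow, 4 values for a tag are those of the untreated and treated miR-139 line and the untreated and treated scrambled line, in that order. Of the members 9 had all 4 NE libraries above the other 8 (26.5%, beside 14.0% of all genes) and 2 had them all below (5.88%, beside 10.0%).

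Elongation factors were mostly higher in NE. EIF5A showed the largest difference of all members, with 751, 832, 939 and 1100.3 FPKM in NE against 588, 611, 586 and 595 in C and 537, 517, 522 and 534 in TR (log2 0.68, SE 0.09, adjusted p = 4e-05). Every NE library was above every other one. EEF1B2 held 646, 709, 750.3 and 869.7 FPKM in NE, 559, 567, 617 and 623 in C and 617, 606, 465 and 524 in TR (log2 0.38, SE 0.10, adjusted p = 0.00577). Again the NE libraries lay above all others. EEF1G held 2433, 2823, 3132 and 3704 FPKM in NE, 2173, 2341, 2517 and 2493 in C and 2499.9, 2589, 2131 and 2445 in TR (log2 0.32, SE 0.11, adjusted p = 0.0261), with overlap. EEF2K, the kinase that inhibits eEF2, held 10.7, 11.9, 10.7 and 12.3 FPKM in NE, 10.0, 10.5, 10.7 and 10.1 in C and 7.39, 8.88, 9.33 and 9.19 in TR (log2 0.24, SE 0.08, adjusted p = 0.0175). Its C and NE libraries overlapped and its TR libraries were below both. The other elongation genes, EEF2 and EEF1A2, were not called (log2 0.12, SE 0.10, adjusted p = 0.322 and log2 −0.18, SE 0.10, adjusted p = 0.149).

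The eIF2 group divided. EIF2S1, the alpha subunit on which stress kinases act, held 227, 189.6, 182 and 200.3 FPKM in NE against 149, 134, 138 and 149 in C and 108, 129, 133 and 138 in TR (log2 0.57, SE 0.08, adjusted p = 8.76e-05). No other library reached the NE range. EIF2S2, the beta subunit, went the other way, with 203, 176, 171 and 186 FPKM in NE, 259.9, 217, 279 and 274 in C and 244, 227, 178 and 207 in TR (log2 −0.34, SE 0.09, adjusted p = 0.00458). NE was below all of C and overlapped TR. EIF2S3, the gamma subunit, was not called (log2 −0.15, SE 0.08, adjusted p = 0.117).

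Of the 4 measured eIF2B subunits 3 were higher in NE. EIF2B2 held 35.6, 39.6, 44.4 and 49.0 FPKM in NE, 28.3, 28.0, 29.8 and 29.1 in C and 30.7, 28.0, 27.4 and 30.8 in TR (log2 0.52, SE 0.08, adjusted p = 9.9e-05). EIF2B3 held 35.3, 32.3, 30.9 and 34.2 FPKM in NE, 23.9, 24.1, 23.4 and 26.2 in C and 26.0, 22.3, 19.1 and 22.3 in TR (log2 0.49, SE 0.07, adjusted p = 7.86e-05). For both, all NE libraries exceeded all others. EIF2B4 was at 36.9, 39.5, 46.8 and 47.8 FPKM in NE, 30.3, 32.3, 34.5 and 30.9 in C and 39.7, 39.5, 34.4 and 36.0 in TR (log2 0.29, SE 0.08, adjusted p = 0.00852), where NE overlapped TR but not C. EIF2B1 was not called (log2 0.02, SE 0.06). The eIF2 kinases among the members were lower, EIF2AK3 (PERK) at 7.52, 6.12, 5.35 and 6.08 FPKM in NE, 8.10, 8.04, 7.64 and 8.50 in C and 6.68, 7.03, 7.36 and 8.09 in TR (log2 −0.26, SE 0.09, adjusted p = 0.0253). EIF2AK4 (GCN2) was at 51.3, 48.1, 44.0 and 43.2 FPKM in NE, 54.3, 56.0, 54.9 and 57.0 in C and 46.4, 53.7, 53.4 and 55.6 in TR (log2 −0.21, SE 0.07, adjusted p = 0.0267). For each kinase the NE and TR ranges overlapped, and within the miR-139 line alone neither was called. EIF2AK2 (PKR), an eIF2 kinase outside the members, was not called in NE (log2 0.09, SE 0.10, adjusted p = 0.460, limma).

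Of the 10 measured eIF3 subunits 4 were higher, 1 was lower and 5 were not called. EIF3I held 183, 211, 215 and 266 FPKM in NE, 149, 143, 149 and 154 in C and 152, 141, 144 and 145 in TR (log2 0.56, SE 0.08, adjusted p = 6.49e-05). EIF3K held 236, 243, 287 and 327 FPKM in NE, 189.8, 196, 209 and 206 in C and 234, 225, 186 and 204 in TR (log2 0.40, SE 0.09, adjusted p = 0.00281). The NE libraries of both were above all others. EIF3G was at 193, 229.8, 257 and 289 FPKM in NE, 196, 208, 211 and 195 in C and 199, 214, 176 and 193 in TR (log2 0.27, SE 0.09, adjusted p = 0.0236), and EIF3D at 215, 227, 235 and 276 FPKM in NE, 221, 204, 233 and 233 in C and 199.6, 185, 175 and 180.5 in TR (log2 0.23, SE 0.07, adjusted p = 0.0205). In both the highest value was that of the treated scrambled NE library. EIF3A, the large core subunit, was lower, with 106, 91.2, 76.0 and 86.8 FPKM in NE, 122, 121, 124 and 125 in C and 107, 109, 115 and 111 in TR (log2 −0.38, SE 0.08, adjusted p = 0.00113). All its NE libraries were below all others. The core subunits EIF3C, EIF3F, EIF3L and EIF3M, with EIF3J, ran from −0.13 (EIF3M) to 0.21 (EIF3F) on the log2 scale.

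The genes grouped as start-site factors divided too. EIF1AX, the scanning factor eIF1A, held 79.5, 77.1, 56.3 and 74.2 FPKM in NE, 54.2, 57.3, 55.8 and 55.5 in C and 57.9, 57.0, 55.0 and 55.2 in TR (log2 0.34, SE 0.08, adjusted p = 0.00198). The untreated scrambled NE library alone lay within the range of the others. EIF1AD held 43.7, 41.1, 44.7 and 48.9 FPKM in NE, 35.9, 42.1, 38.5 and 39.9 in C and 33.8, 34.9, 38.3 and 35.9 in TR (log2 0.25, SE 0.07, adjusted p = 0.00664), with NE and C overlapping. EIF5, which activates GTP hydrolysis by eIF2, and EIF5B were lower. EIF5 held 178, 153, 137 and 144 FPKM in NE, 227, 203, 221 and 216 in C and 186, 178, 187 and 189 in TR (log2 −0.39, SE 0.07, adjusted p = 0.000398), and its NE and TR libraries overlapped by a narrow margin. EIF5B held 57.2, 49.6, 46.5 and 52.0 FPKM in NE, 65.3, 67.0, 59.6 and 67.5 in C and 73.7, 72.8, 61.2 and 63.9 in TR (log2 −0.36, SE 0.06, adjusted p = 0.000353), all NE libraries below all others. EIF1 (log2 −0.09, SE 0.13, adjusted p = 0.572) and EIF2D (log2 0.12, SE 0.09, adjusted p = 0.293) were not called. Of the remaining factors EIF6 held 298, 325, 381 and 443 FPKM in NE, 236, 244, 251 and 242 in C and 262, 238, 247 and 246 in TR (log2 0.54, SE 0.09, adjusted p = 0.000186). EIF4A3 held 88.5, 89.7, 96.8 and 103 FPKM in NE, 68.2, 72.4, 61.5 and 65.2 in C and 75.8, 70.5, 73.4 and 70.1 in TR (log2 0.43, SE 0.07, adjusted p = 0.000198). Both had every NE library above every other. EIF4ENIF1 was not called and was the flattest of the 3, between 11.6 and 14.6 FPKM in all libraries.

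**Figure D3:**
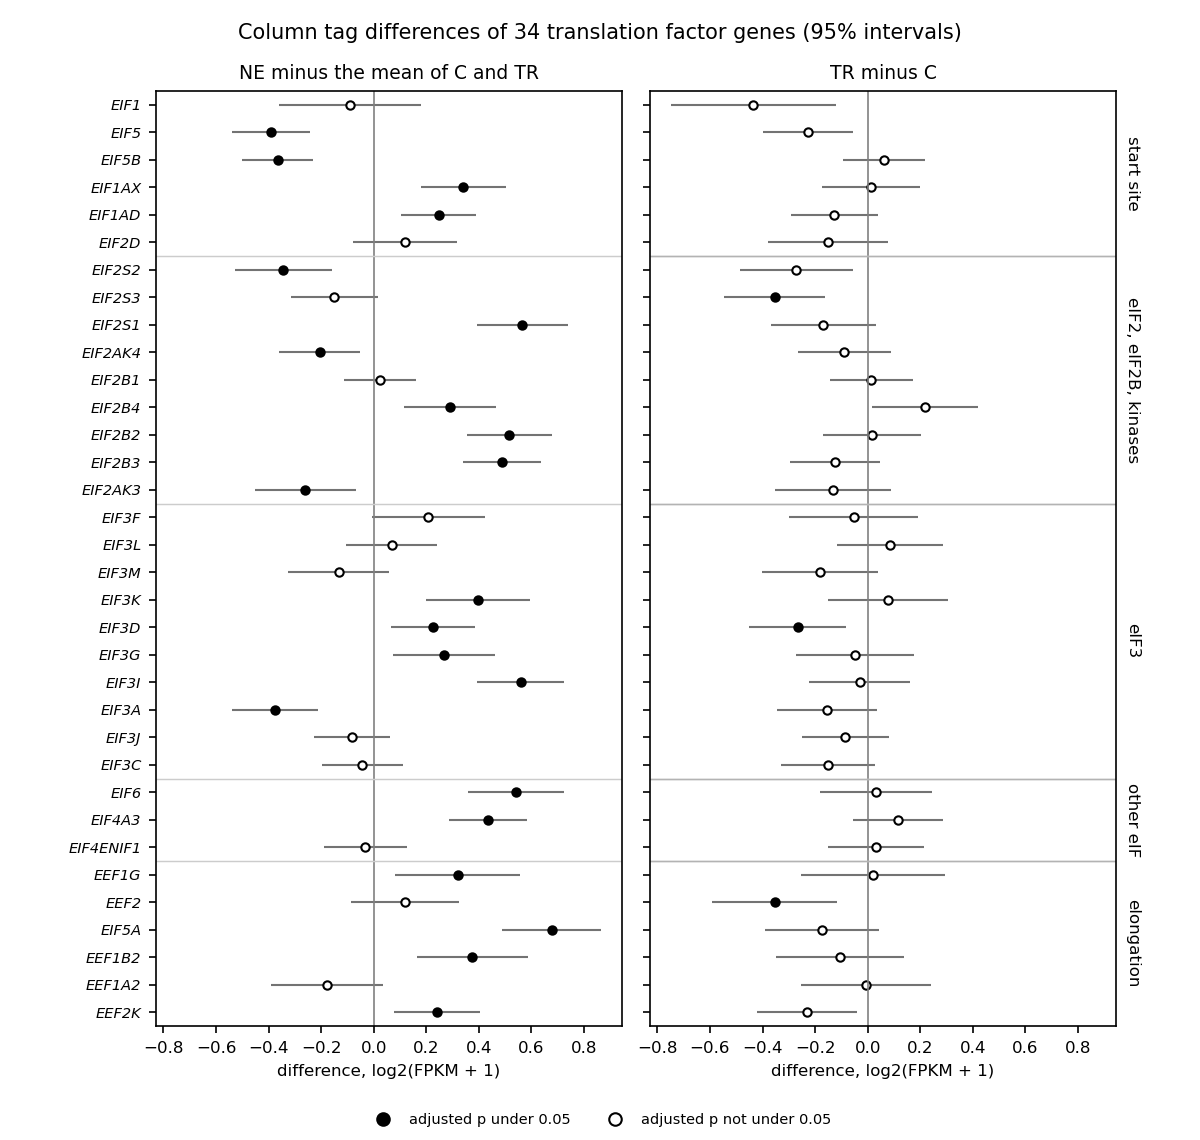
Differences between column tags for the 34 genes on the log2(FPKM + 1) scale with 95% intervals, NE minus the mean of C and TR (left) and TR minus C (right), 4 libraries for each tag; filled points passed the adjusted threshold. On the left 16 genes lie above and 6 below 0; on the right only EIF2S3, EIF3D and EEF2 are filled, all below 0.

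How these calls divide depends on the scaling. Under upper quartile scaling 21 members were called, 11 higher and 10 lower (beside 20.6% and 31.3% of all genes), and under quantile normalization 22, 12 higher and 10 lower (beside 25.9% and 23.4%). Of the 22 calls, 17 remained under upper quartile scaling and 17 under quantile normalization. In all 21 alternatives, single libraries left out and each line on its own included, 11 members were called in the same direction: EIF2B2, EIF2B3, EIF2S1, EIF3I, EIF4A3, EIF5A and EIF6 higher, and EIF2S2, EIF3A, EIF5 and EIF5B lower. The other 11 kept their call in 12 (EEF1G) to 20 (EIF1AX, EIF3K and EEF1B2) of the 21. Without the treated scrambled NE library 16 members were called, 11 higher and 5 lower, beside 2150 and 1833 of all 9778 genes. Leaving out the untreated scrambled NE library also left 16, 12 higher and 4 lower, beside 2220 and 1877 of all genes. Within the miR-139 line alone 14 members were called, beside 33.3% of all genes, and within the scrambled line alone 23, beside 59.0%. All 22 had the same sign in both lines, and 12 were called in both.

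A ratio of 2 genes in the same library does not depend on how the library was scaled. These ratios were chosen after the values were seen and are given as a description. The ratio of EIF2S1 to EIF2S2, alpha over beta subunit of eIF2, was 1.07 to 1.12 in the NE libraries, 0.494 to 0.618 in C and 0.443 to 0.751 in TR. The alpha mRNA was thus the more abundant of both per length in every NE library and the less abundant in all others. EIF2S1 to EIF2S3 gave 1.05 to 1.20 in NE, 0.571 to 0.702 in C and 0.610 to 0.856 in TR. The ratio of EIF3I to EIF3A was 1.72 to 3.07 in NE, 1.18 to 1.23 in C and 1.26 to 1.42 in TR. EIF5A to EIF5B was 13.1 to 21.2 in NE, 8.82 to 9.83 in C and 7.09 to 8.52 in TR. In contrast EEF1G to EEF1B2, both of eEF1B, overlapped between tags, at 3.77 to 4.26 in NE, 3.89 to 4.13 in C and 4.05 to 4.67 in TR.

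**Figure D4:**
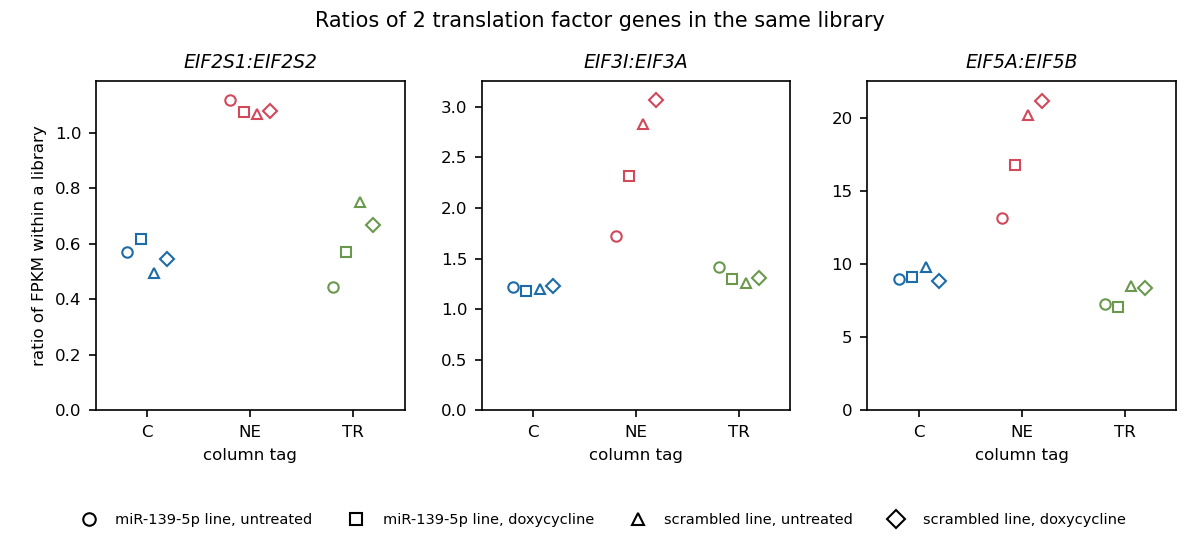
Ratio of the FPKM of 2 genes within each library, by column tag, for EIF2S1 over EIF2S2, EIF3I over EIF3A and EIF5A over EIF5B; each symbol is 1 library of the group given in the key. The 4 NE libraries lie above the 8 others in each panel, and within NE the last 2 ratios are higher in the scrambled line (triangle, diamond) than in the miR-139 line (circle, square).

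Members higher in NE had shorter coding sequences than those lower. In GENCODE 29 the principal transcripts of the 16 higher members had a median coding length of 967.5 bases (432 to 2175) and a median transcript length of 1696.5 bases. Those of the 6 lower members had 3504 (999 to 4947) and 5638 bases. EIF2S2, at 999 bases of coding sequence, and EIF5, at 1293, were lower though short in coding sequence. By transcript length EIF5 was not short, at 5945 bases. Over the 34 members Spearman's rho between the NE difference and coding length was −0.52, with transcript length −0.56 and with GC content 0.37. Over 7615 tested genes with an annotated length these were −0.31, −0.32 and 0.37. The median NE difference was 0.19 over the 1908 genes with the shortest coding sequences (up to 867 bases). It was −0.10 over the 1903 with the longest (2184 bases or more). All points share the same 12 libraries, and what part length or base composition has in the result was not tested.

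**Figure D5:**
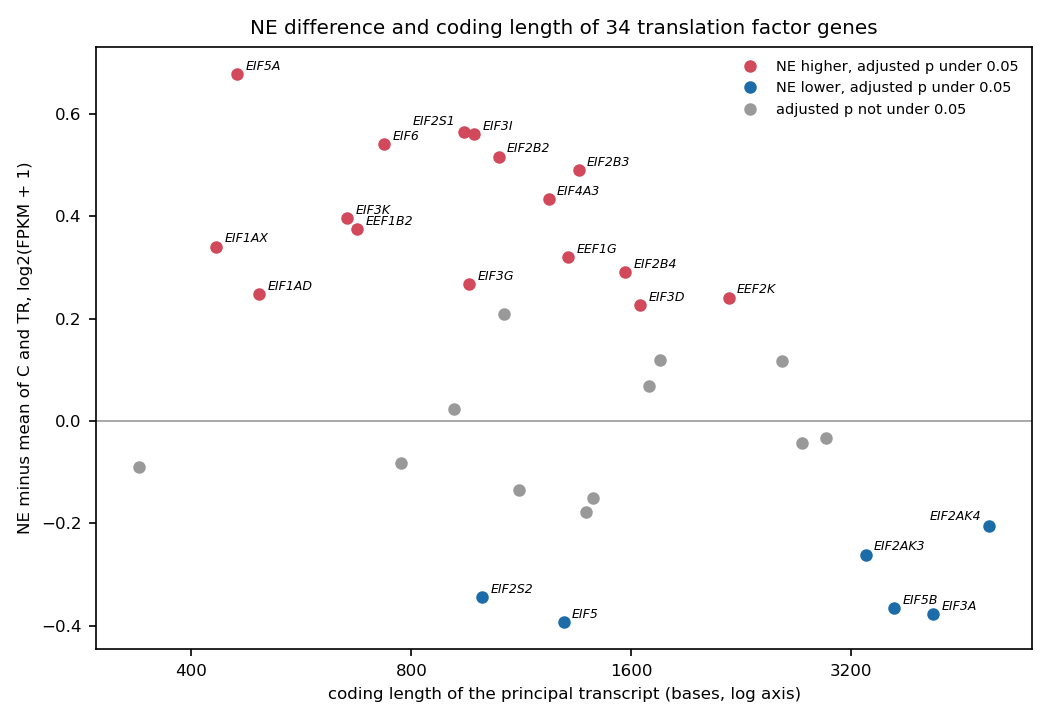
NE minus the mean of C and TR on the log2(FPKM + 1) scale against the coding length of the principal transcript (log axis) for the 34 genes; named points passed the adjusted threshold. The 16 higher genes lie at 432 to 2175 bases and 4 of the 6 lower ones beyond them, with EIF2S2 and EIF5 as lower genes of short coding sequence.

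Between TR and C only 3 members differed, all lower in TR (adjusted p under 0.05), and 0 were higher, beside 16.6% of all genes called, 8.16% lower and 8.49% higher. EIF2S3 held 177, 183, 156 and 174 FPKM in TR and 212, 199, 241 and 233 in C (log2 −0.35, SE 0.09, adjusted p = 0.0161, limma). EEF2 held 1202, 1295, 1212 and 1343 FPKM in TR and 1534, 1553, 1728 and 1646 in C (log2 −0.35, SE 0.11, adjusted p = 0.0426, limma). EIF3D held 199.6, 185, 175 and 180.5 FPKM in TR and 221, 204, 233 and 233 in C (log2 −0.27, SE 0.09, adjusted p = 0.0486, limma). In all 3 genes every TR library was below every C library. The same held for EIF3A, EIF5, EIF5A and EEF2K, which were not called in TR against C, and the share of all genes was not counted. The 3 called genes are also 3 of the 7 members with a pyrimidine run at the start, described above. The 7 had a median TR difference of −0.18 and ran from −0.35 to 0.08, whereas the 22 members without the run at the start had a median of −0.09. Those 22 include EIF1, EIF3C, EIF3J and EEF2K, which have a run near the annotated start. Over all genes the medians were −0.02 with and 0.00 without the run. Of 56 tested ribosomal protein genes, the set in which the run was most common, 48 were above 0 in TR, with a median of 0.08. Any link between the run and the TR difference was not tested. EIF1 had the largest difference and was not called: it held 577, 554, 453 and 487 FPKM in TR and 715, 539.9, 874 and 699.9 in C, with overlapping ranges (log2 −0.43, SE 0.15, adjusted p = 0.0559).

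The TR calls depended on single libraries. Leaving out single libraries gave between 0 and 5 called members, beside 876 to 2170 of all 9778 genes. It gave 0 when the untreated or the treated C library of the scrambled line was left out, beside 876 and 918 genes. No member was called without the expression filter, beside 996 of 20148 genes. With quantile normalization 7 were called, all lower, beside 9.85% of all genes. In the scrambled line alone 6 members were lower in TR (EIF1, EIF2S2, EIF2S3, EIF3D, EIF3M and EEF1B2), beside 7.41% of all genes. In the miR-139 line alone EEF2 was lower, beside 9.02% of all genes, and EIF2B4, EIF3K and EIF3L were higher, beside 10.1%. The TR difference was not called different between the lines for any member (0 of 34, beside 0% of all genes). An unadjusted p under 0.05 was found for 10 members, beside 15.1% of all genes.

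Whether the NE difference itself differed between the lines was tested after the values had been seen. It did for 9 members, beside 16.5% of all tested genes (10.3% higher and 6.21% lower). Of these 9 members 8 had a more positive NE difference in the scrambled line and 1, EIF3A, a more negative one. The count of called members was 0 without the treated NE library of the scrambled line or its untreated TR library. It was also 0 without the untreated NE or TR library of the miR-139 line. It was 0 as well without the variance trend or the expression filter. In these settings 0 of all genes were called too, except for 446 without the untreated TR library of the scrambled line. The EIF5A difference, for example, was 0.86 in the scrambled and 0.49 in the miR-139 line, and that of EIF3A was −0.54 and −0.21. That of EEF1A2 was 0.06 in the scrambled and −0.42 in the miR-139 line, so its NE decrease was in the miR-139 line.

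The surrounding pathway was read from lists of other translation genes. Of 10 genes of the eIF2 phosphatase and of ATF4 output 9 were tested. In TR against C 7 of the 9 were lower and 1, PPP1CA, was higher, beside 8.16% and 8.49% of all genes. The median was −0.75 on the log2 scale, beside −0.01 for all genes. DDIT3, a stress transcription factor downstream of ATF4, was between 23.3 and 33.5 FPKM in TR and between 41.7 and 90.8 in C (log2 −1.16, SE 0.17, adjusted p = 0.000647, limma). CHAC1, another target, was between 7.98 and 18.0 FPKM in TR and 18.0 and 39.2 in C, with a narrow overlap (log2 −1.40, SE 0.21, adjusted p = 0.000774, limma). PPP1R15A, which brings phosphatase to eIF2, was between 33.5 and 36.6 FPKM in TR and between 49.2 and 70.2 in C (log2 −0.75, SE 0.08, adjusted p = 8.98e-05, limma). ATF4 itself was lower in TR as well (log2 −0.52, SE 0.13, adjusted p = 0.0167, limma). In NE 5 of the 9 were lower, CHAC1, DDIT3, DDIT4, PPP1CC and PPP1R15A, and PPP1CA was higher, beside 24.0% and 28.0% of all genes. The mRNAs of the eIF2 kinases EIF2AK3 and EIF2AK4 were lower in NE and not called in TR, while that of EIF2AK2 was called in neither (log2 0.09 in NE and −0.23 in TR). The TR differences of EIF2AK3 and EIF2AK4 were −0.13 and −0.09 on the log2 scale. Cell type markers moved with the same tags. In TR against C the thyroid markers PAX8 (log2 0.71) and HHEX (0.61) and, of the 4 tested markers of other cell types, COL1A1 (1.11), ESAM (0.64) and KRT10 (0.39) were called higher and CD68 (−0.74) lower (limma). In NE PAX8 (log2 0.34), HHEX (0.31), ESAM (0.41) and KRT10 (0.58) were called higher and COL1A1 (−0.33) lower (limma). Their part in the differences between tags, those of the members included, was not tested.

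Of all tested genes 28.0% were higher and 24.0% lower in NE, and the list counts here are to be read against that. Of 56 tested cytosolic ribosomal protein genes 25 were higher and 0 lower in NE, with a median of 0.27. In the later test between lines their NE difference was more positive in the scrambled line by a median of 0.40, beside 0.04 for all genes. It was called higher for 29 of them, beside 10.3% of all genes. These calls too were lost, with 0 of all genes called, without the treated scrambled NE library or without the untreated NE or TR library of the miR-139 line. The same held without the variance trend or the expression filter. In TR against C 0 were called, beside 16.6% of all genes. Among 9 tested initiation and elongation genes outside the members 5 were higher in NE and 3 lower. DHPS and DOHH, the enzymes that make the hypusine of eIF5A, were among the 5 (log2 0.20, SE 0.08, adjusted p = 0.0443 and log2 0.63, SE 0.09, adjusted p = 7.23e-05, limma). Of 7 tested cap-binding genes 3 were higher and 2 lower, and of 3 release and rescue genes 1 was higher and 1 lower. In the comparisons of the study's groups none of these lists had a called gene without the block.

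No member with a seed site was called after doxycycline. EIF2AK4, whose site is only in the alternative transcript, so that the gene's FPKM need not come from mRNA that carries it, held 54.3, 51.3 and 46.4 FPKM in the untreated and 56.0, 48.1 and 53.7 FPKM in the treated miR-139 line (log2 0.05, SE 0.14). EIF2S1 held 149, 227 and 108 and 134, 189.6 and 129 FPKM (log2 −0.05, SE 0.26), and EIF3M, with 2 sites, 385, 373 and 386 and 383, 347 and 410.1 FPKM (log2 −0.01, SE 0.16). The groups overlapped for each. With the block the 95% intervals were −0.15 to 0.26, −0.28 to 0.18 and −0.26 to 0.25, in that order.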

How the data were processed

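PolyA RNA of 12 CAL62 libraries was sequenced, 3 in each of 4 groups. The authors deposited FPKM values (fragment numbers over transcript length and library size), of which 37471 genes were used here. Per the submitters' processing notes the builds were GRCh37 and hg19 and the aligners STAR 2.5, TopHat, TopHat2 2.0.10 and Bowtie 1.0.0. Those notes also list Cufflinks, HTSeq, FastQC 0.11.0, and SAMtools in versions 1.3.1 and 0.1.19. Which made the FPKM values, and with what annotation, is not given in the sources used here. The table carries no read counts, so depth is unknown and no counting interval is given. FPKM is relative to each library's total, so the scaling can move many genes together.

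Columns name a group and a tag (C, NE, TR). The titles' replicate letters are A, B and C, of which A and B do not occur among the tags. Whether the tag C is the letter C is not given, so libraries were assigned to groups only. No pair of the 66 held identical values. Nothing says that libraries came from separate cultures, so p-values measure the spread between these libraries. Same-tag libraries deviated together from their group means (18 pairs, r from 0.33 to 0.86, against −0.66 to 0.14 for 36 pairs of different tags), so the tag served as a replicate block in an alternative fit.

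Genes with a mean of at least 1 FPKM (9778) were tested on the log2(FPKM + 1) scale with limma 3.58.1 (R 4.3.3), two-sided, with a variance trend and Benjamini-Hochberg adjustment over all 9778 genes at 0.05. Fold changes on this scale understate those of low genes. The 5 group comparisons came from the 4 group means, and the 2 tag comparisons from tag plus group. The fits were tested on simulated data. Alternatives were the block, a pseudocount of 0.1, no filter or 5 FPKM, upper quartile and quantile scaling, no trend, and leaving out libraries or tags. A fit within each line, the test of tag differences between lines and the ratios were added after seeing the data. Named with values are the highest and lowest gene of each role, the 3 largest differences of each comparison and all called members. The members and lists were chosen with earlier results of these data known. GENCODE 29 (GRCh38) and RefSeq (GRCh38.p14) served for sequences and lengths only, matched by symbol (34 of 34 members and 29 of 34), and are another build than the table's.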

Additional observations from a re-analysis of the deposited data

Results flagged for a closer look

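The difference of the NE libraries from C and TR was not the same in both lines for 9 members, by limma's test of that difference (scrambled minus miR-139 line, log2 scale, adjusted p under 0.05 over 9778 genes). It was more positive in the scrambled line for EEF1A2 by 0.4755, EIF3G by 0.4465, EIF3K by 0.4225 and EIF3F by 0.3961. The same held for EIF6 by 0.3871, EIF5A by 0.372, EIF2B4 by 0.3557 and EEF1B2 by 0.3399. For EEF1A2 the NE difference was 0.06 in the scrambled line and −0.42 in the miR-139 line. For EIF3A the difference between the lines was −0.3267. For EEF1A2 the NE values were 36.3 and 42.1 FPKM for the miR-139 line as opposed to 57.0 and 67.5 FPKM for the scrambled one, and the C values were 53.6 and 48.5 FPKM as opposed to 65.2 and 58.0 FPKM. The treated scrambled NE library was the highest of all 12 in EIF3G, EIF3K, EIF3F, EIF6, EIF5A, EIF2B4, EEF1B2 and EEF1A2, and no member was called without it. Under upper quartile scaling 6 members were called, 2 higher and 4 lower (beside 5.38% and 11.3% of all genes), and under quantile normalization 3, all lower (beside 6.14% of all genes lower and 3.26% higher). No member was called without the variance trend, where 14 had an unadjusted p under 0.05, beside 3232 of all 9778 genes.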

How the results depend on the processing

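In the 5 group comparisons 0 members were called in each of the 31 alternatives, the replicate block (0 members) included, alone and together with other choices. With the block the count of all genes called went from 0 to 2 (doxycycline, miR-139 line), 1 (difference of the changes) and 11 (treated lines). For NE against C and TR 16 to 23 members were called in all alternatives but the fit within the miR-139 line, which gave 14. Beside them 3983 to 5766 of all genes were called, and 3254 in that fit. For TR against C, where the main count was 3, it was 0 with no filter, 7 with quantile normalization and 6 in the scrambled line alone, and 0 to 5 with single libraries left out. Leaving out single libraries moved EIF3F (doxycycline, scrambled line) between −0.00071 and 0.27, and EIF3I (treated lines) between −0.35 and 0.11. Those fits had no block, so leaving out a library of a compared group left the tags unequal. Over all named log2 changes and alternatives, 920 kept direction and side of the threshold, 79 lost a call, 9 gained one, all for EIF1 in TR against C, and 3 turned sign.

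Depth is unknown here, and 3 libraries in each group limit the precision of each mean. Upper quartile and quantile scaling moved how many members lay above 0, from 30 to 24 and 21 for doxycycline in the scrambled line. The cause was not tested.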
